A study of Homo sapiens with 6 samples.

Results

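The genes described here encode heat shock proteins, chaperones and their direct helpers. They are the 43 genes of a written list of HSP, DNAJ, BAG and CCT names, taken from 34913 genes with a matched transcript. The rule uses names and no measured value, though the list was written with earlier results of these data known. By place of action, 32 are cytosolic, 6 belong to the endoplasmic reticulum (ER), 4 are mitochondrial, and HSF1 is their transcription factor. All 43 passed the filter on low counts and were tested among 14595 genes.

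The study sequenced polyadenylated RNA of THP1, a monocytic line grown from a human acute myeloid leukaemia, in 6 libraries. The groups are A5-res, labelled as ALKBH5 rescue, shA5, labelled as ALKBH5 knock-down, and shCtrl, a hairpin control labelled wild-type, with n = 2 each. The titles number the libraries 1 and 2 within each group. ALKBH5 removes the m6A mark from RNA, and by its labels the design asks what its loss and its return change.

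The labels give neither the hairpin, nor the rescue construct, nor the number of clones. They do not say whether the numbered libraries were separate cultures. A p-value here therefore reflects the spread among these libraries alone, and that spread may be technical. Estimated counts totalled 14534386 to 24857373 per library. The 10 myeloid markers examined, such as SPI1 and LYZ, were all detected at a summed level of 2577 to 3124 CPM (counts scaled to a common library size), while T cell genes CD3D and CD2, erythroid genes HBB and HBA1 and the epithelial gene KRT18 were at 0. Of the 14 markers of other cell types, 3 passed the filter.

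ALKBH5 went against the group labels and followed the replicate number. It stood at 938 CPM in the library labelled A5-res number 2, at 973 in shA5 number 2 and at 1064 in shCtrl number 2. In the libraries numbered 1 it stood at 13.1 CPM in A5-res, 12.0 in shA5 and 14.2 in shCtrl. Every direction and every group name below is therefore that of the libraries as labelled. The labels do not say what the number marks, and it is called only the number here.

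Chaperones bind unfolded proteins and help them fold, assemble or be destroyed. HSP70 proteins hold short stretches of a client and are switched by J proteins (DNAJ) and released by exchange factors (BAG and HSP110). HSP90 then matures kinases and receptors with its co-chaperones, and the CCT ring folds actin and tubulin. HSF1 switches on many cytosolic members during heat or protein stress through heat shock elements, while ER members answer to the unfolded protein response, in part through the ER stress element. Bulk libraries cannot tell fewer cells of a type from less RNA per cell.

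Promoter stretches are shown for 8 members chosen among those that carry a heat shock element or the ER stress element. Others that carry one, such as CHORDC1, are not shown. Heat shock elements were found in cytosolic members and in the mitochondrial members HSPD1 and HSPA9, and not in the ER members. HSPA9 held only the shorter form given below. The ER stress element was found in the ER members HSPA5 and HSP90B1 alone. The matches come from RefSeq windows on GRCh38.p14 that run from 250 bases before to 50 bases after each start site, of which 40 of the 43 members had at least 1. HSPA14, FKBP4 and HSF1 had none. Capitals mark exact matches on either strand, and in the ER stress element its fixed letters. A heat shock element of 3 units was searched as GAANNTTCNNGAA or TTCNNGAANNTTC, which are each other's reverse complement. The shorter element of 2 units was searched as GAANNTTC or TTCNNGAA and is contained in the longer one. The ER stress element was searched as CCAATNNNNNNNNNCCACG. A match describes the letters in the window and was not tested for binding.

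The 4 members with the element of 3 units shown here are the cytosolic HSP90 genes HSP90AA1 (chr14:102087100-102087152, minus strand) and HSP90AB1 (chr6:44247758-44247863, plus strand), the constitutive HSP70 gene HSPA8 (chr11:123062159-123062211, minus strand) and the mitochondrial chaperonin gene HSPD1 (chr2:197500048-197500090, minus strand). HSP90AB1 and HSPA8 each hold a pair of matches, and the HSPA8 stretch shows the one nearer the start site. In HSPD1 overlapping matches form 1 run, and the HSP90AA1 stretch also has a match of 2 units downstream of the longer one.
HSP90AA1: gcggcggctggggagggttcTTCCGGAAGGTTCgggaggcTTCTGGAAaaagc
HSP90AB1: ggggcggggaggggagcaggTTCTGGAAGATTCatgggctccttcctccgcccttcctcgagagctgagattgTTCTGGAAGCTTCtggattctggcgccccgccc
HSPA8: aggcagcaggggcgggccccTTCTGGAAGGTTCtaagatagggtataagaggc
HSPD1: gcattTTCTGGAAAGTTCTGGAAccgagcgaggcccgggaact

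The stress-inducible HSP70 copies HSPA1A (chr6:31815417-31815464, plus strand) and HSPA1B (chr6:31827613-31827660, plus strand) had the element of 2 units, in near-identical surroundings.
HSPA1A: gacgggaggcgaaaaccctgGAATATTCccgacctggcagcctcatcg
HSPA1B: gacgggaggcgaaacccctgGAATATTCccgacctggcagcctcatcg

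The ER stress element was found in HSPA5 (chr9:125241371-125241429, minus strand), the ER HSP70 also called BiP, and in HSP90B1 (chr12:103930196-103930359, plus strand), the ER HSP90 also called GRP94. HSP90B1 has 1 match on each strand.
HSPA5: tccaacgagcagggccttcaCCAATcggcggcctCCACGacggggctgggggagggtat
HSP90B1: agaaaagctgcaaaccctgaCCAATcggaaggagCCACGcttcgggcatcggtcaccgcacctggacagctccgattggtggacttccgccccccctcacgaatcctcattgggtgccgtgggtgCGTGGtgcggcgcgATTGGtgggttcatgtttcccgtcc

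The element of 3 units was present in 7 of the 40 members with a window, the 4 above with CHORDC1, DNAJA1 and DNAJB6, and in 0.608% of the 27305 genes with a window. The element of 2 units was present in 19 of the 40 members and in 16.2% of all these genes. The ER stress element was present in 2 of the 40 members and in 0.0916% of them.

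Levels were set across genes per transcript length, in TPM, the deposited abundance per length, summed per gene. HSPA8 was the highest member, with a mean of 2814 TPM over the 6 libraries and a range of 2536 to 3064 TPM. HSP90AB1 followed with a mean of 1739 TPM and a range of 1396 to 2084 TPM, which did not overlap that of HSPA8. The CCT subunit gene CCT5 had a mean of 1187 TPM and touched HSP90AB1 only at 1396 TPM. CCT3 (855 TPM), TCP1 (815 TPM), HSPB1 (758 TPM), HSPD1 (712 TPM) and HSP90AA1 (708 TPM) came next, and their ranges over the libraries overlapped, so their order is not resolved. HSP90B1, at 462 TPM, was the highest ER member, with a range of 331 to 679 TPM that overlapped those of HSP90AA1 and STIP1. BAG2, an inhibitor of the CHIP ubiquitin ligase, was the lowest member at 3.10 TPM, below DNAJB4, HSPA4L, DNAJB9 and HSPA13, whose means were 7.48, 7.57, 7.61 and 8.35 TPM and whose ranges overlapped. The range of BAG2 was 1.77 to 4.50 TPM and overlapped that of HSPA13 alone among these 4.

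Summed over the 32 cytosolic members, the level was 11324 TPM in A5-res, 10892 in shA5 and 10726 in shCtrl in the libraries numbered 2, against 13293 TPM in A5-res, 13331 in shA5 and 13709 in shCtrl numbered 1. All 3 sums of number 2 lay below all 3 sums of number 1. The 6 ER members summed to 1208 TPM in A5-res, 1084 in shA5 and 854 in shCtrl numbered 2, against 716 TPM in A5-res, 735 in shA5 and 821 in shCtrl numbered 1. Here all 3 TPM sums of number 2 lay above those of number 1, and the shCtrl libraries were nearest to each other. As a share of all gene counts, the ER members overlapped between the numbers. That share was 0.243% in A5-res, 0.219% in shA5 and 0.172% in shCtrl numbered 2. In number 1 it was 0.158% in A5-res, 0.162% in shA5 and 0.175% in shCtrl. The mitochondrial members summed to 1257 to 1479 TPM in number 2 and to 1482 to 1588 TPM in number 1. These sums rest mostly on the highest members of each set.

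**Figure D1:**
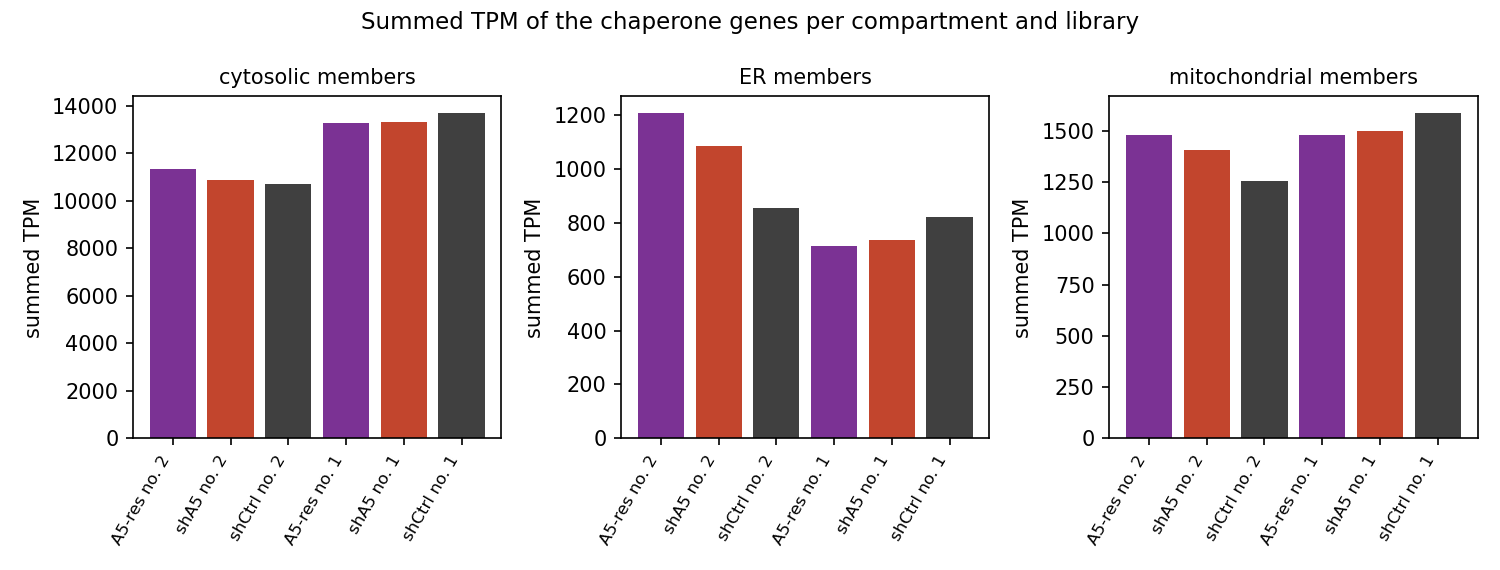
Summed TPM of the cytosolic, ER and mitochondrial chaperone genes in each of the 6 libraries, with the 3 libraries numbered 2 on the left and those numbered 1 on the right, coloured by group. The cytosolic sum lies at 10726 to 11324 TPM in number 2 and at 13293 to 13709 TPM in number 1. The ER sum in TPM is higher in number 2, at 854 to 1208 TPM against 716 to 821 TPM. As a share of gene counts (not drawn) the ER members overlap, with shCtrl at 0.172% in number 2 and 0.175% in number 1.

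The comparison between the numbers had the most changes. In a fit with group and number, edgeR's quasi-likelihood test with Benjamini-Hochberg adjustment at 0.05 called 26 of the 43 members between number 2 and number 1 (60.5%), with 6 higher and 20 lower in number 2. Over all genes tested it called 46.1%, of which 23.1% were higher and 22.9% were lower. The median log2 fold change was -0.22 over the members and 0.01 over all genes. Cytosolic members changed with 2 higher and 17 lower of 32 (median -0.31), ER members with 4 higher and 0 lower of 6 (median 0.34), and mitochondrial members with 0 higher and 2 lower of 4 (median -0.18). DESeq2 called 24 of the 43 members and 33.5% of all genes. In CPM, 25 members had no overlap between the numbers, 5 of them higher and 20 lower in number 2, where 57.8% of all genes had none (28.6% higher and 29.2% lower). Of the 26 edgeR calls, 25 had the same sign within each of the 3 groups, the exception being HSP90B1. Without the shA5 library of either number the fit rests on the other groups' libraries, and 13 members were called, with 2 higher and 11 lower. These 13 were called under every alternative, namely BAG2, BAG3, CCT2, CCT3, CCT5, DNAJA3, DNAJC7, FKBP4, HSP90AB1, HSPA13, HSPA4, HSPB1 and STIP1.

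**Figure D2:**
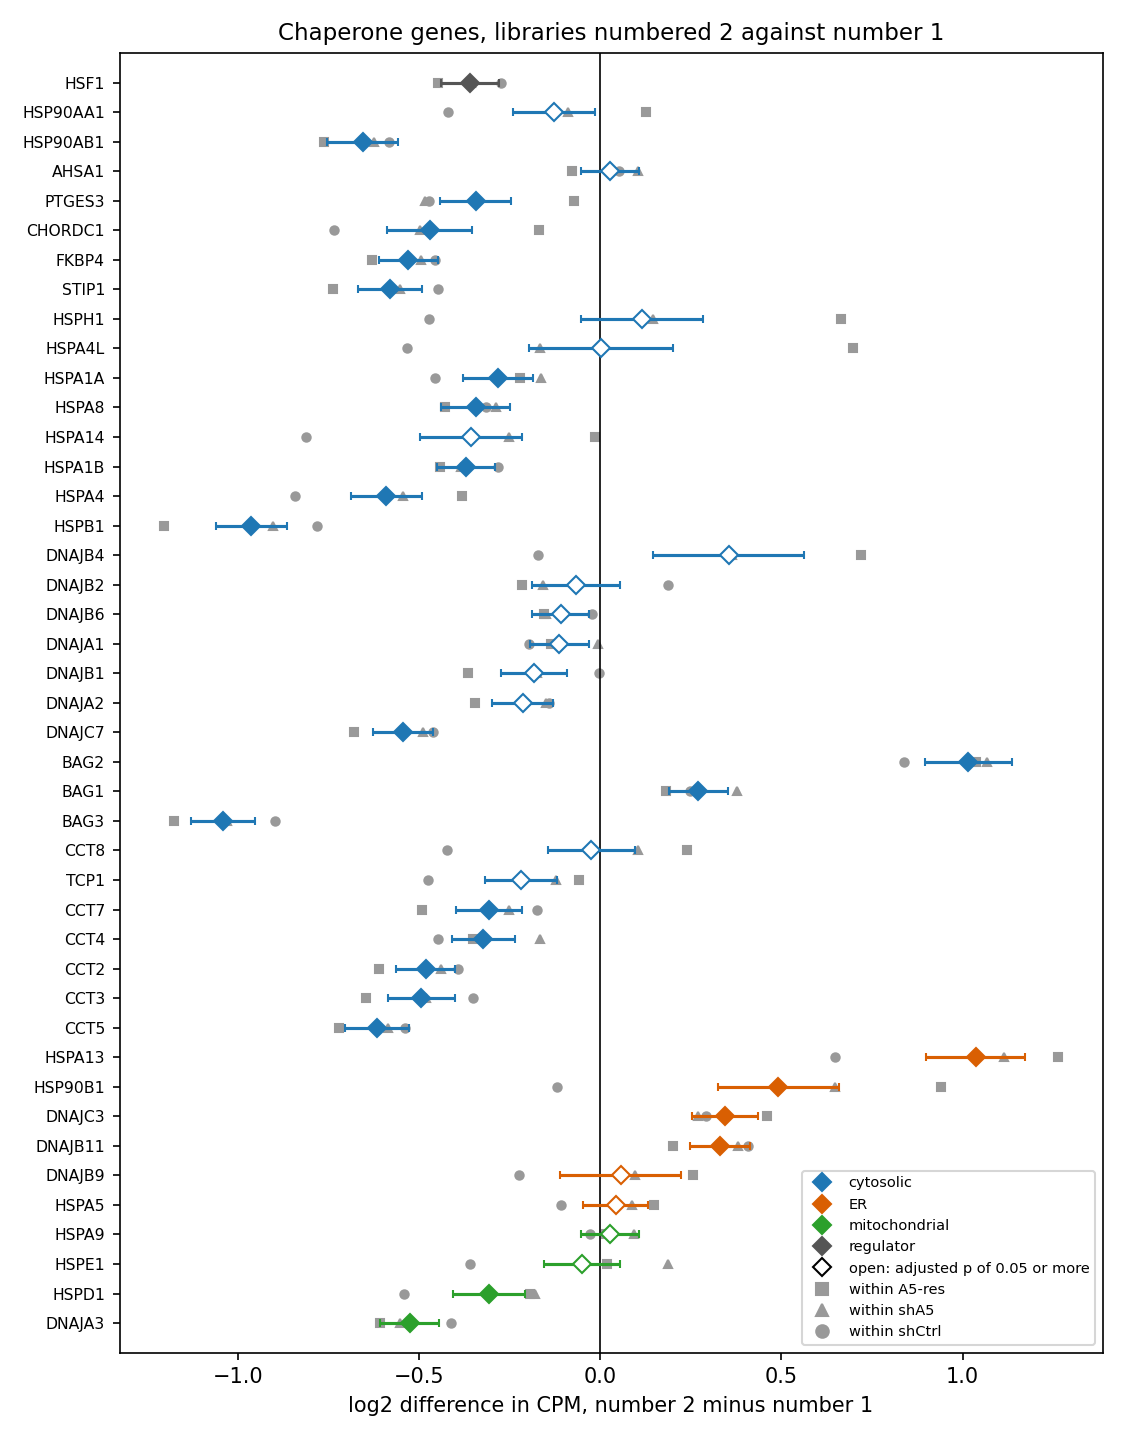
Log2 fold change of each of the 43 chaperone genes between libraries numbered 2 and 1, grouped by class, with bars of 1 SE from the edgeR fit and grey symbols for the difference within each group. The 6 ER members lie at or above 0 (0.04 to 1.04), all 7 CCT subunits lie below 0 (-0.61 to -0.02), and BAG3 and BAG2 mark the ends of the cytosolic range at -1.04 and 1.02.

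HSF1, the transcription factor of the heat shock response (GRCh38 chromosome 8, 144291591 to 144314722, plus strand), was measured at 177 CPM in A5-res, 176 in shA5 and 194 in shCtrl numbered 2, against 241 CPM in A5-res, 225 in shA5 and 235 in shCtrl numbered 1. The numbers did not overlap. HSF1 RNA fell by 0.36 on the log2 scale (SE 0.08, edgeR adjusted p = 0.00492). It is 1 of the 13 calls that were lost without either shA5 library, as are those of HSPA8, PTGES3, CHORDC1, CCT4, CCT7, HSPA1A and HSPA1B below. The calls of CCT4, PTGES3 and HSPA1A were also lost without either shCtrl library, and those of HSPA8 and CHORDC1 without shCtrl number 1.

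Of the HSP90 machine, the constitutive gene HSP90AB1 had 2570 CPM in A5-res, 2489 in shA5 and 2718 in shCtrl numbered 2, against 4354 CPM in A5-res, 3833 in shA5 and 4069 in shCtrl numbered 1. Every library of number 2 lay below every library of number 1, and the log2 fold change was -0.66 (SE 0.10, edgeR adjusted p = 0.00059). The inducible HSP90AA1 had 1520 CPM in A5-res, 1301 in shA5 and 1163 in shCtrl numbered 2, against 1394 CPM in A5-res, 1384 in shA5 and 1556 in shCtrl numbered 1. These values overlapped, and the log2 fold change of -0.13 (SE 0.11, 95% interval -0.38 to 0.12) did not pass.

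The HSP90 co-chaperones had 0 of 5 higher and 4 lower. STIP1, the adaptor that links HSP70 to HSP90, averaged 417 ± 30.1 CPM in number 2 and 623 ± 36.5 CPM in number 1 (SD, n = 3 each), a log2 difference of -0.58 (SE 0.09, edgeR adjusted p = 0.000655). FKBP4, an immunophilin that works with steroid receptors, averaged 88.0 ± 3.32 CPM in number 2 and 127 ± 4.34 CPM in number 1 (SD, n = 3 each), a log2 difference of -0.53 (SE 0.08, edgeR adjusted p = 0.000662). CHORDC1 and PTGES3, the p23 protein, also passed at -0.47 and -0.34. AHSA1, the activator of the HSP90 ATPase, was at 0.03 (95% interval -0.15 to 0.20) and did not pass.
AHSA1 did differ in its transcripts. The protein-coding transcript AHSA1-202 held 3.98% of the gene's counts in A5-res, 4.01% in shA5 and 2.75% in shCtrl numbered 2, against 12.1% in A5-res, 11.1% in shA5 and 9.96% in shCtrl numbered 1. The shares of the numbers did not overlap, and they were not tested.

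Among the HSP70 and HSP110 genes, 0 of 7 were higher and 4 were lower. HSPA8 had 2405 CPM in A5-res, 2315 in shA5 and 2488 in shCtrl numbered 2, against 3234 CPM in A5-res, 2824 in shA5 and 3094 in shCtrl numbered 1, without overlap (log2 fold change -0.34, SE 0.10, edgeR adjusted p = 0.0147). HSPA4, an exchange factor of the HSP110 family, had 189 CPM in A5-res, 173 in shA5 and 145 in shCtrl numbered 2, against 246 CPM in A5-res, 252 in shA5 and 261 in shCtrl numbered 1. It showed no overlap either (log2 fold change -0.59, SE 0.10, edgeR adjusted p = 0.00102). Its relative HSPH1 had 388 CPM in A5-res, 316 in shA5 and 207 in shCtrl numbered 2, against 244 CPM in A5-res, 286 in shA5 and 288 in shCtrl numbered 1. HSPH1 was above number 1 in A5-res and shA5 and below it in shCtrl, and its log2 fold change of 0.12 (SE 0.17) did not pass. HSPA4L was at 0.00 (95% interval -0.44 to 0.45), and HSPA14, a ribosome-associated HSP70, was at -0.36 (edgeR adjusted p = 0.0623).

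HSPA1A and HSPA1B are near-identical, and the deposited transcript set places their reads almost wholly on alternate copies of the major histocompatibility region. The primary-assembly transcripts of HSPA1A held 0 counts in all 6 libraries, and those of HSPA1B held 24.9 counts in shA5 number 2 and 0 elsewhere. With the alternate copies added by gene symbol, the pair had 235 CPM in A5-res, 238 in shA5 and 256 in shCtrl numbered 2, against 309 CPM in A5-res, 302 in shA5 and 318 in shCtrl numbered 1. The numbers did not overlap, and the pair fell by 0.35 (SE 0.08, edgeR adjusted p = 0.00484, log2 scale). HSPA1B was given 78.9% to 82.1% of the pair's counts in the libraries. Taken alone, HSPA1B was at -0.37 (edgeR adjusted p = 0.00415) and HSPA1A at -0.28 (edgeR adjusted p = 0.0375), and how kallisto divides reads between them leaves both uncertain. In DESeq2, HSPA1A did not pass.

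HSPB1, the small heat shock protein HSP27 that keeps unfolded proteins soluble (chromosome 7, 76302544 to 76304295, plus strand), had 274 CPM in A5-res, 271 in shA5 and 308 in shCtrl numbered 2, against 631 CPM in A5-res, 506 in shA5 and 528 in shCtrl numbered 1. The highest library of number 2 was far below the lowest of number 1, a log2 difference of -0.96 (SE 0.10, edgeR adjusted p = 6.56e-05).

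The 3 BAG genes, exchange factors of HSP70, all passed and did not share a direction. BAG3, which carries HSP70 clients to autophagy and is a target of HSF1 (chromosome 10, 119651370 to 119677819, plus strand), had 49.9 CPM in A5-res, 50.9 in shA5 and 58.7 in shCtrl numbered 2, against 113 CPM in A5-res, 104 in shA5 and 110 in shCtrl numbered 1. It fell by 1.04 (SE 0.09, edgeR adjusted p = 2.64e-05, log2 scale), the largest drop among the 43. BAG2 (chromosome 6, 57172326 to 57189833, plus strand) had 21.5 CPM in A5-res, 22.1 in shA5 and 20.2 in shCtrl numbered 2, against 10.2 CPM in A5-res, 10.3 in shA5 and 11.1 in shCtrl numbered 1. It rose by 1.02 (SE 0.12, edgeR adjusted p = 0.00015), again without overlap. BAG1, which tethers HSP70 to the proteasome, rose by 0.27 (SE 0.08, edgeR adjusted p = 0.0206), and that call was lost without either shA5 library.

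Of the 7 cytosolic J proteins, 0 were higher and 1 was lower. DNAJC7, which binds both HSP70 and HSP90, averaged 139 ± 8.09 CPM in number 2 and 202 ± 8.80 CPM in number 1 (SD, n = 3 each), a log2 difference of -0.54 (SE 0.08, edgeR adjusted p = 0.00062). DNAJB1, the main stress-inducible J protein and a classic HSF1 target, had 120 CPM in A5-res, 118 in shA5 and 136 in shCtrl numbered 2, against 154 CPM in A5-res, 133 in shA5 and 136 in shCtrl numbered 1. The shCtrl pair nearly coincided, and the log2 fold change of -0.18 (95% interval -0.38 to 0.02) did not pass. The others lay between -0.21 for DNAJA2 and 0.35 for DNAJB4.

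The CCT ring had 5 of its 7 listed subunits lower and 0 higher. CCT5 had 842 CPM in A5-res, 856 in shA5 and 931 in shCtrl numbered 2, against 1387 CPM in A5-res, 1284 in shA5 and 1352 in shCtrl numbered 1. This was the largest difference of the ring, at -0.61 (SE 0.09, edgeR adjusted p = 0.000467). CCT2 averaged 220 ± 9.96 CPM in number 2 and 307 ± 19.9 CPM in number 1 (SD, n = 3 each), with a log2 fold change of -0.48 (edgeR adjusted p = 0.00122). CCT3, CCT4 and CCT7 also fell, by 0.49, 0.32 and 0.31. TCP1 averaged 577 ± 60.8 CPM in number 2 and 669 ± 37.0 CPM in number 1 (SD, n = 3 each), and its log2 fold change of -0.22 (edgeR adjusted p = 0.1004) did not pass.
CCT8 had 370 CPM in A5-res, 329 in shA5 and 243 in shCtrl numbered 2, against 313 CPM in A5-res, 306 in shA5 and 325 in shCtrl numbered 1, so that only its shCtrl library numbered 2 was low. Its log2 fold change was -0.02 (95% interval -0.29 to 0.24).

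**Figure D3:**
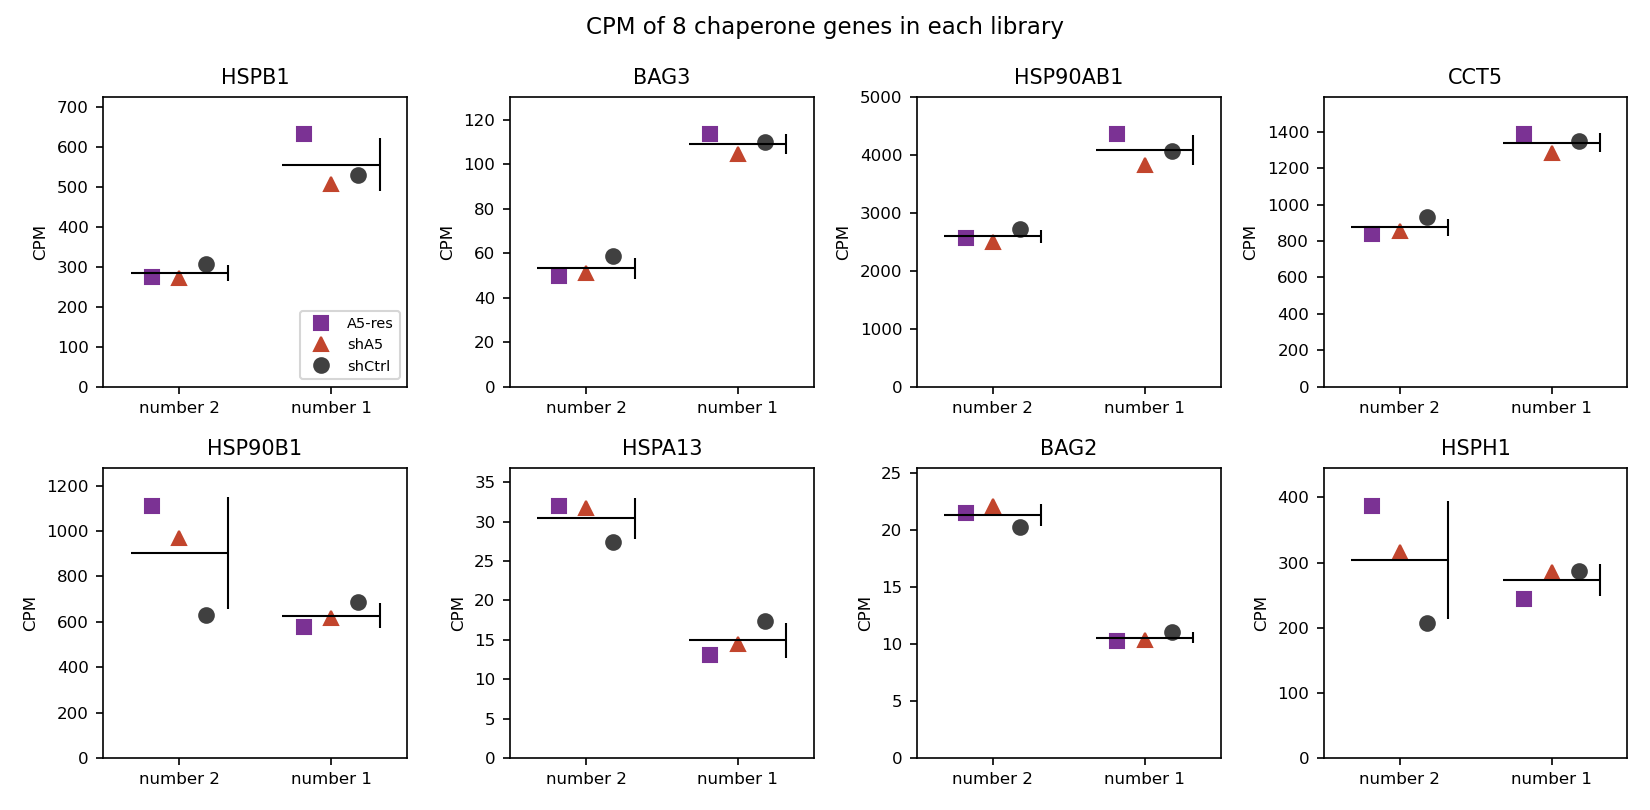
CPM of 8 chaperone genes in each library, with number 2 on the left and number 1 on the right of each panel, a symbol per group, and lines for the mean and SD of the 3 libraries. HSPB1, BAG3 and HSP90AB1 are lower in number 2 without overlap, BAG2 and HSPA13 are higher without overlap, and HSP90B1 is high only in the A5-res and shA5 libraries numbered 2, at 1112 and 968 CPM against 579 to 685 CPM elsewhere.

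In the ER, 4 of the 6 members were higher in number 2 and 0 were lower. HSPA13, an ATPase of the HSP70 family found in microsomes (chromosome 21, 14371115 to 14383484, minus strand), had 32.03 CPM in A5-res, 31.8 in shA5 and 27.5 in shCtrl numbered 2, against 13.1 CPM in A5-res, 14.4 in shA5 and 17.3 in shCtrl numbered 1. It rose by 1.04 (SE 0.14, edgeR adjusted p = 0.000297), the largest rise among the 43, without overlap. DNAJB11, a J protein that serves HSPA5, averaged 149 ± 3.54 CPM in number 2 and 119 ± 9.33 CPM in number 1 (SD, n = 3 each), with a log2 fold change of 0.33 (edgeR adjusted p = 0.00858). DNAJC3, which also inhibits the kinase PERK, averaged 65.7 ± 3.30 CPM in number 2 and 51.7 ± 1.70 CPM in number 1 (SD, n = 3 each), with a log2 fold change of 0.34 (edgeR adjusted p = 0.0114). The calls of DNAJB11 and DNAJC3 were lost without either shA5 library.

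The 2 members whose windows hold the ER stress element did not move alike. HSPA5 had 972 CPM in A5-res, 897 in shA5 and 846 in shCtrl numbered 2, against 876 CPM in A5-res, 844 in shA5 and 911 in shCtrl numbered 1. Its values overlapped, and the log2 fold change was 0.04 (95% interval -0.16 to 0.24). HSP90B1 had 1112 CPM in A5-res, 968 in shA5 and 631 in shCtrl numbered 2, against 579 CPM in A5-res, 618 in shA5 and 685 in shCtrl numbered 1. Its log2 fold change was 0.49 (SE 0.17, edgeR adjusted p = 0.0337), but within shCtrl the difference was -0.12, and the call was lost in DESeq2 and without either shA5 library. DNAJB9, an HSPA5 helper that restrains the sensor IRE1, was at 0.06 (95% interval -0.31 to 0.43). The difference between HSP90B1 and HSPA5 was not tested.

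In mitochondria, DNAJA3, the J protein of mitochondrial HSP70, had 87.0 CPM in A5-res, 86.2 in shA5 and 91.8 in shCtrl numbered 2, against 133 CPM in A5-res, 126 in shA5 and 122 in shCtrl numbered 1, without overlap (log2 fold change -0.53, SE 0.08, edgeR adjusted p = 0.000718). HSPD1, the chaperonin HSP60, had 936 CPM in A5-res, 823 in shA5 and 781 in shCtrl numbered 2, against 1070 CPM in A5-res, 933 in shA5 and 1137 in shCtrl numbered 1. The libraries overlapped narrowly, and it fell by 0.31 (SE 0.10, edgeR adjusted p = 0.0293), a call lost without either shA5 or either shCtrl library. Its partner lid HSPE1 was at -0.05 (95% interval -0.29 to 0.19) and the mitochondrial HSP70 HSPA9 at 0.03 (95% interval -0.15 to 0.21). The annotated spans of HSPD1 and HSPE1 overlap on opposite strands of chromosome 2, and no label or header gives the strand setting of the counting. Whether their transcripts share sequence was not examined, so reads of any shared stretch cannot be assigned with certainty.

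Related genes outside the list were counted in the same fit, which called 46.1% of all genes, and the shares of these lists are to be read against that. Of the other factors around HSF1, 1 of 4 tested was higher and 2 were lower, with HSF4 at 1.02 and HSBP1, which binds and restrains HSF1, at -0.51, while the HSP70 exchange factor HSPBP1 was at -1.09. Of 28 other cytosolic chaperones, 3 were higher and 9 lower. The 4 with the smallest p were FKBP5 (-0.56), SUGT1 (-0.68), the prefoldin subunit gene PFDN2 (-0.61) and the kinase-loading co-chaperone CDC37 (-0.48). Of 12 other mitochondrial chaperones and proteases, 1 was higher and 5 lower, among them the mitochondrial HSP90 TRAP1 (-0.96) and the HSP70 exchange factor GRPEL1 (-1.11).
Of 16 other ER chaperones and folding enzymes, 5 were higher and 2 lower in number 2. The disulphide isomerase P4HB averaged 1132 ± 77.7 CPM in number 2 and 2174 ± 117 CPM in number 1 (SD, n = 3 each), a log2 fold change of -0.94, and calreticulin (CALR) was at -0.54. The ER degradation genes SEL1L and HERPUD1 were at 0.66 and 0.45. Of 9 regulators of the unfolded protein response, 4 were higher and 0 lower, namely the kinase gene EIF2AK3 (0.82), DDIT3 (0.47), ATF4 (0.35) and ATF6B (0.22). XBP1 and the remaining 4 did not pass.

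By the labels, the comparison of shA5 with shCtrl sets knock-down against control, though ALKBH5 was at 973 CPM in shA5 and 1064 in shCtrl numbered 2, and at 12.0 CPM in shA5 and 14.2 in shCtrl numbered 1. No chaperone gene was called, and 0% of all genes were called by edgeR's quasi-likelihood test (40 of 14595 genes, and 0 of the 43 members, had an unadjusted p under 0.05). DESeq2 also called 0 members. Both fits have no term for the number and count the difference between the numbers as spread. The median log2 fold change was -0.07 over cytosolic, 0.05 over ER and -0.04 over mitochondrial members, against -0.03 over all genes. The cytosolic median was 0.19 without shCtrl number 1 and -0.22 without shCtrl number 2. DNAJB9 (0.40, SE 0.26), HSPA4L (0.46, SE 0.32) and PTGES3 (0.33, SE 0.25) had the smallest p, each with an edgeR adjusted p of 1.00. With the number as a block, the SE of PTGES3 was 0.12 (unadjusted p = 0.0191, edgeR adjusted p = 0.975).
PTGES3 had 158 CPM in shA5 and 126 in shCtrl numbered 2, and 221 CPM in shA5 and 175 in shCtrl numbered 1. It was higher in shA5 within each number, by 0.33 and 0.34 on the log2 scale. The 95% interval of the fit without the block ran from -0.27 to 0.94.

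By the labels, A5-res against shA5 sets rescue against knock-down, which the ALKBH5 levels above do not show. Again 0 of the 43 members and 0% of all genes passed edgeR's test (41 of 14595 genes, and 0 of the members, had an unadjusted p under 0.05, and DESeq2 called 0). The medians were 0.07 over cytosolic, 0.05 over ER and 0.11 over mitochondrial members, against 0.01 over all genes. DNAJA1, a J protein of cytosolic HSP70, was at 0.23 (SE 0.16), PTGES3 at -0.33 (SE 0.25) and CCT4 at 0.29 (SE 0.22). CCT4 had 345 CPM in A5-res and 303 in shA5 numbered 2, and 440 CPM in A5-res and 339 in shA5 numbered 1.

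The comparison of A5-res with shCtrl sets the libraries labelled rescue against the control. It gave 0 of 43 members and 0% of all genes (47 of 14595 genes, and 0 of the members, had an unadjusted p under 0.05, and DESeq2 called 0). The 3 comparisons share libraries, so their values are not independent. HSPE1 was at 0.26 (SE 0.19), CCT8 at 0.26 (SE 0.20) and HSPH1 at 0.35 (SE 0.28), where the 95% interval of HSPH1 ran from -0.33 to 1.04. The medians were 0.01 over cytosolic, 0.07 over ER and 0.05 over mitochondrial members.
With the number as a block, 0 of the 43 members were called in any of the 3 comparisons, where 0.00685% of all genes were called for shA5 against shCtrl and for A5-res against shCtrl, and 0% for A5-res against shA5. Members with an unadjusted p under 0.05 in that edgeR fit were PTGES3 for shA5 against shCtrl, CCT4, PTGES3 and DNAJA1 for A5-res against shA5, and HSPA14 for A5-res against shCtrl. There, HSPA14 was at 0.40 (SE 0.17) and HSPE1 at 0.26 (SE 0.13) for A5-res against shCtrl. Of all 14595 genes, 350 had an unadjusted p under 0.05 in that edgeR fit for shA5 against shCtrl. The same count was 286 for A5-res against shA5 and 234 for A5-res against shCtrl.

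Within the numbers the groups could be set side by side with 1 library each, which allows no test. In number 2, 10 of the 43 members differed between A5-res and shCtrl by more than 0.33 on the log2 scale, where 22.7% of all genes did. In number 1, 3 of the 43 did, where 16.0% of all genes did. The share of members was thus near that of all genes in number 2 and below it in number 1. HSPH1 was higher in A5-res than in shCtrl by 0.90 in number 2 and stood at -0.24 in number 1. HSP90B1 was higher by 0.82 in number 2 and stood at -0.24 in number 1. HSPA14 was higher by 0.80 in number 2 and by 0.01 in number 1, HSPA4L by 0.65 in number 2 against -0.58 in number 1, and CCT8 by 0.61 in number 2 against -0.06 in number 1. Of the 43 members, 37 had opposite signs in the 2 numbers, 5 were positive in each and 1 was negative in each. Opposite signs were found for 86.0% of the members and 65.2% of all genes tested.
The library labelled shA5 number 2 was also above shCtrl number 2 for HSPA4L (0.66), HSP90B1 (0.62), HSPH1 (0.61), DNAJB9 (0.53) and HSPA14 (0.52). All of these differences use the same shCtrl library numbered 2, which was the lowest of the 6 for HSPH1, HSPA14, CCT8, HSPE1 and DNAJB9.

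**Figure D4:**
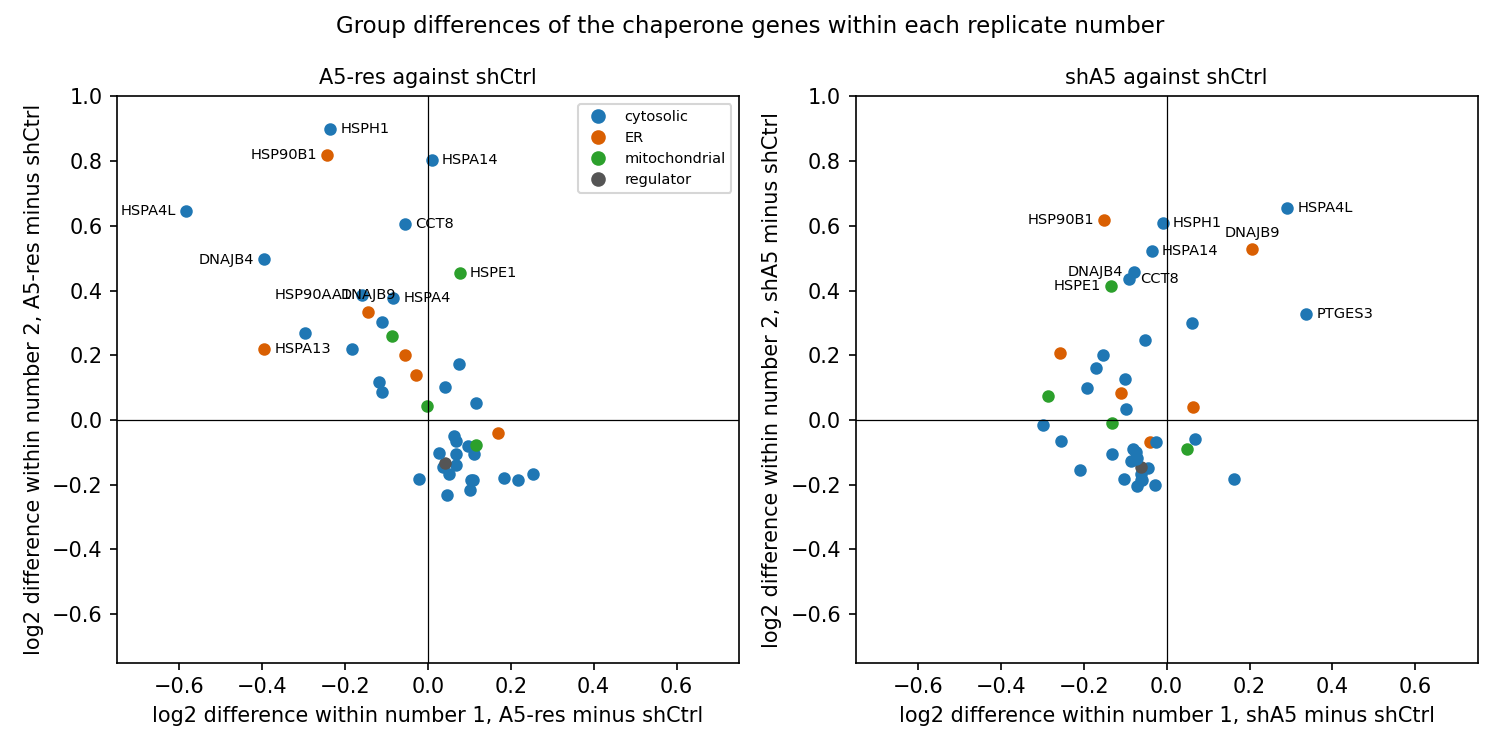
Log2 difference of each chaperone gene from shCtrl within number 2 (vertical) and within number 1 (horizontal), for A5-res in the left panel and shA5 in the right, with 1 library per group and number. HSPH1 and HSP90B1 stand at 0.90 and 0.82 for A5-res in number 2 and at -0.24 and -0.24 in number 1, and 37 of the 43 genes have opposite signs in the left panel.

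GC content moved with these differences. Over 14570 genes, the log2 difference of A5-res from shCtrl in number 2 had a Pearson correlation of -0.44 with the GC percent of the gene's main transcript, and over the 43 members it was -0.50. In number 1 the correlation was 0.26 over all genes and 0.44 over the members. For shA5 against shCtrl it was -0.40 over all genes and -0.46 over the members in number 2. These are correlations across genes of the same libraries, so the points share depth and library preparation. HSPH1, HSP90B1, HSPA14 and CCT8 have a GC percent of 42.2, 42.4, 43.1 and 43.1, below the median of all genes of 50.7. The part of GC content in these differences was not tested.
Between the numbers, the correlation over the members was -0.53 in A5-res, -0.45 in shA5 and -0.17 in shCtrl, against -0.32, -0.14 and 0.03 over all genes. The members higher in number 2 had a median GC percent of 41.1, those lower 49.8 and those not called 44.7. HSPA13 and BAG2, which rose most, have 34.9% and 37.0%, and HSPB1 and BAG3, which fell most, have 64.5% and 56.9%. The part of GC content here was not tested either, and the 20 lower members include HSPA4 at 42.5%, while BAG1, which was higher, has 65.7%.

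**Figure D5:**
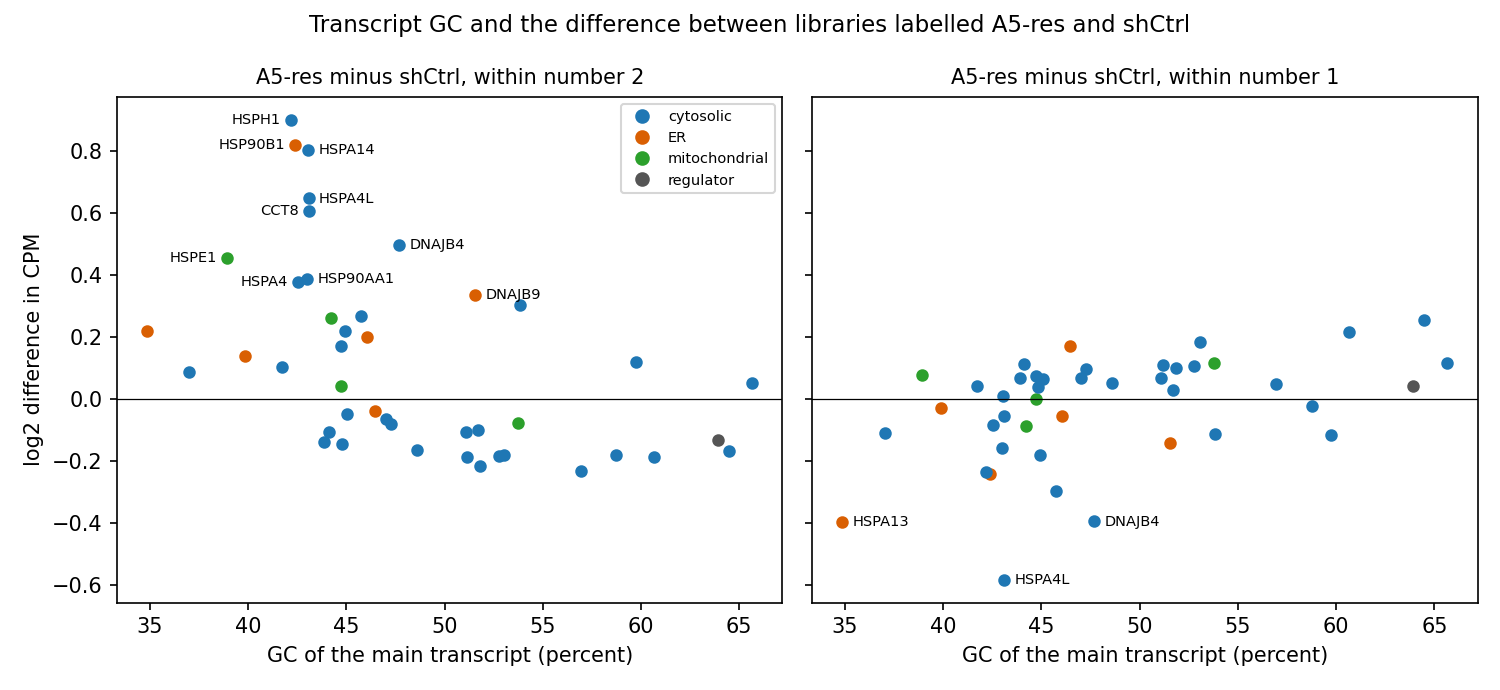
Log2 difference of each chaperone gene against the GC percent of its main transcript, for A5-res against shCtrl within number 2 (left) and within number 1 (right). Genes of low GC content such as HSPH1 (42.2%) and HSP90B1 (42.4%) lie high for A5-res against shCtrl in number 2, where the correlation over the 43 members is -0.50, and the slope has the opposite sign in number 1 (0.44).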

How the data were processed

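The submitters' processing notes name CASAVA, kallisto 0.43.1 and hg38. The deposited tables hold, for each of 179973 transcripts, the authors' estimated counts and TPM. Options, strand setting and transcript release are not stated there. By the labels' protocols, oligo-dT selected RNA was fragmented, randomly primed and amplified by PCR, with no molecular identifier mentioned.

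Estimated counts were summed per gene with GENCODE release 29, which matched 163714 transcripts on the primary assembly. A further 14229 on alternate loci were joined to their gene by symbol and held 2.93% to 3.11% of counts per library. The other 2030 transcripts held 0.191% to 0.202% and were left out. Sums were rounded. TPM was summed per gene as deposited. It was used for levels, for the sums per compartment and for the shares of the members' total, and in no test. GC content is that of each gene's primary-assembly transcript with the highest mean TPM.

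The test was that of edgeR 4.0.16, run in R 4.3.3 (TMM, filterByExpr, glmQLFit, glmQLFTest, all 6 libraries), with Benjamini-Hochberg adjustment over 14595 genes at 0.05. The group comparisons had 1 coefficient per group (3 residual degrees of freedom, biological coefficient of variation 27.6%). The comparison of numbers had group and number (2 residual degrees of freedom, 10.5%). CPM uses the TMM-adjusted library size, and values within a number are differences of log2(CPM + 0.5). Each SE was derived from the fold change and its F statistic. The procedure was tested on simulated data.

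No label says that the numbers mark a shared day or batch. Deviations from the group means correlated at 0.60 to 0.74 between same-numbered libraries for all 3 pairs of groups, and the first principal component (66.1% of variance) separated the numbers, at 28.1 to 40.5 for number 2 and -39.0 to -32.3 for number 1. The numbers were therefore taken to pair the libraries. The main fit of the group comparisons still had no term for the number, and the members with the smallest p were picked from it. The fit with the number as a block is given beside it for the calls and for some members. The chi-square per gene between libraries was at least 3.27, above sampling noise, so no library was counted as deposited again.

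The 43 genes, their classes, the other lists and the tests were chosen with earlier results of these data known. Full values are given for a fixed set of 21 leading members, for members past the threshold (up to 10 a direction by p) and, where none passed, for the 3 with the smallest p. HSPA14, AHSA1 and CCT8 in the comparison of numbers, the ends of class ranges and the genes named within a number were chosen after their values were seen. Of each other list, up to 4 genes were named by p, apart from XBP1, HSPA6 and HSPA2. Alternatives were RLE size factors, DESeq2 1.42.0, no filter or 1 CPM in 2 libraries, the block, no group term, HSPA1A and HSPA1B summed, each library left out, and primary-assembly transcripts only.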

Additional observations from a re-analysis of the deposited data

How the results depend on the processing

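The count of members called between the numbers stayed at 24 to 27 under RLE size factors, DESeq2, either other filter, no group term, HSPA1A and HSPA1B summed, and primary-assembly transcripts only, the last chosen after the data were seen. Leaving out 1 library gave 13 to 30, with 13 without the shA5 library of either number. The fit then rests on fewer libraries. In the 3 group comparisons 0 members were called under every alternative run, and 0 without the replicate block or with it. The block changed no member's call.

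Medians of the group comparisons moved with single libraries. For shA5 against shCtrl, the cytosolic median of -0.0737 was -0.0794 with RLE size factors, -0.0636 with primary-assembly transcripts only and -0.0678 with the replicate block, and ran from -0.22 to 0.19 when 1 library was left out. Over the same settings with 1 library left out, the ER median ran from -0.0934 to 0.31 and the mitochondrial median from -0.14 to 0.21. For A5-res against shA5 the ranges were -0.10 to 0.21 (cytosolic), -0.33 to 0.24 (ER) and 0.0945 to 0.20 (mitochondrial), and for A5-res against shCtrl -0.14 to 0.27 (cytosolic), -0.12 to 0.26 (ER) and -0.0733 to 0.35 (mitochondrial). With 1 library left out, a lone library is assumed to vary like the other groups. The cause of these shifts was not tested.

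With 2 libraries a group and no term for the number, intervals of the group comparisons were wide, and 0 calls do not show that members were alike. That fit counts the difference between the numbers as spread. For A5-res against shA5, the block took the SE of BAG3 from 0.54 to 0.11 and of HSPB1 from 0.51 to 0.12. For HSPA4L it went from 0.32 to 0.24. The number is crossed with the groups, and the labels do not say what it marks. DNAJB4, at a few CPM, had the largest SE between the numbers (0.21). Levels as counts per kilobase of effective length were planned and not run. Groups of 2 were too small for the check for a sample far from the others.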

Other observations

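The make-up of the chaperone pool also differed between the numbers. Cytosolic HSP90 genes held 15.1% of the members' summed TPM in A5-res, 15.0% in shA5 and 15.6% in shCtrl numbered 2, against 17.98% in A5-res, 17.9% in shA5 and 17.6% in shCtrl numbered 1. HSPB1 held 3.89% in A5-res, 3.90% in shA5 and 4.30% in shCtrl numbered 2, against 6.72% in A5-res, 5.79% in shA5 and 5.82% in shCtrl numbered 1. ER members held 8.54% in A5-res, 8.01% in shA5 and 6.58% in shCtrl numbered 2, against 4.57% in A5-res, 4.67% in shA5 and 5.04% in shCtrl numbered 1. For each of these classes the numbers did not overlap in this share of TPM. As a share of all gene counts the ER members did overlap, at 0.172% in shCtrl number 2 and 0.175% in shCtrl number 1. The CCT subunits held 25.3% to 25.9% in number 2 and 26.2% to 26.8% in number 1, and the HSP70 and HSP110 genes 21.5% to 22.8% in number 2 and 21.4% to 21.8% in number 1. These shares add up to a fixed total and were not tested.

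HSPA6, an HSP70 gene that responds to strong heat stress and was named here after its values were seen, averaged 72.6 ± 4.27 CPM in number 2 and 71.7 ± 3.10 CPM in number 1 (SD, n = 3 each). Its log2 difference of 0.02 (SE 0.09, edgeR adjusted p = 0.896) did not pass. HSPA7 is a close copy of it, and how reads were divided between them was not examined, so its level is uncertain. HSPA2, a constitutive HSP70 gene likewise named outside the 4 chosen by p, averaged 5.18 ± 0.777 CPM in number 2 and 3.12 ± 0.783 CPM in number 1 (SD, n = 3 each). It rose by 0.74 (SE 0.18, edgeR adjusted p = 0.00727).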
